A study of Mus musculus with 6 samples.

Results

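The Syk and Card9 chain is the signalling relay through which myeloid cells read the fungal cell wall. Many C-type lectin and Fc receptors, though not all, associate with Fcer1g (FcR gamma) or Tyrobp (DAP12), short transmembrane adaptors that carry an immunoreceptor tyrosine-based activation motif (ITAM). Once Src family kinases phosphorylate the ITAM, the tyrosine kinase Syk docks there and is activated. Syk then acts with Btk, the exchange factor Vav1 and phospholipase C gamma 2 (Plcg2) to raise calcium and diacylglycerol, protein kinase C delta (Prkcd) phosphorylates Card9, and Card9 assembles with Bcl10 and Malt1 to activate NF-kB. In macrophages this route is known for driving cytokine production, phagocytosis and the oxidative burst against Candida albicans.

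Transcripts of these 10 genes, chosen by gene name from a table of 54532 genes, were compared between 3 libraries of wild type (WT) macrophages, with replicate numbers 1, 2 and 3, and 3 libraries of progranulin knock out (PGRN KO) macrophages, with replicate numbers 4, 5 and 6. All 6 libraries came from C57BL/6J cells labelled as recruited from the mouse peritoneal cavity and kept with C. albicans for 6 hours at an equal ratio of fungal to plated cells, although the titles of the WT libraries call them control. Unchallenged cells were not analysed here, and the comparison is therefore between genotypes in the presence of the fungus. In the study's own text, however, the macrophages that were sequenced are called bone marrow-derived, the fungus is called live and given at another ratio, and the 2 genotypes of mice came from different suppliers. Neither the age of the mice nor whether each library was made from a separate mouse was stated. The p-values therefore measure the spread between these libraries, which may be technical.

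The libraries held 15996786 to 17551619 counted fragments. Grn, the gene that encodes progranulin, had 17294 to 20372 fragments in the WT libraries and 0 or 1 in the PGRN KO libraries. Macrophage markers were present in both genotypes, led by Lyz2, Cd68 and Adgre1. Over 8 genes their summed level was 7133 to 7464 FPKM (fragment counts scaled by gene model length and library size) in WT. In PGRN KO the sum was 7382, 7260 and 9767 FPKM, the last in replicate 6. Csf1r was lower and Mertk higher past the threshold used below. Without PGRN KO replicate 6, Marco, Itgam and Fcgr1 also passed as lower (log2 fold change -0.66, -0.26 and -0.55). Lyz2 alone had a mean of 5745 FPKM in WT. Of 7 markers of large resident peritoneal macrophages, 3 were below 1 FPKM on average, and their sum was 36.5 to 42.9 FPKM in WT, against 33.0 to 33.2 FPKM in PGRN KO, with Fabp4 lower and Icam2 higher. Their part in the results was not tested. PGRN KO replicate 6 stood apart from the other PGRN KO libraries in a way that followed gene length. Its median difference from replicates 4 and 5 on the log2(FPKM + 1) scale was 0.44 for tested genes of 943 to 1776 bases and -0.39 for those of at least 9218 bases, and the values of the 10 genes that rest on it are given below with and without it.

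All 10 genes were expressed above the filter of a mean of 1 FPKM and were tested. In PGRN KO macrophages Vav1, Plcg2, Bcl10 and Syk fell and Btk rose past an adjusted p of 0.05 (limma on log2(FPKM + 1), Benjamini-Hochberg adjustment over all 8882 genes tested). Both ITAM adaptors, Prkcd, Card9 and Malt1 did not pass. Over all tested genes, 24.2% passed in either direction, 13.8% lower and 10.4% higher, against 4 lower and 1 higher of these 10. The median log2 fold change of the 10 genes was -0.31, beside -0.03 for all genes tested. WT and PGRN KO libraries were fully separate for 7 of these genes, beside 48.8% of all genes tested. Without PGRN KO replicate 6 the same 4 genes were lower and Btk was higher, while 41.3% of all genes tested then passed, 25.1% lower and 16.2% higher. Again 7 of these genes were fully separate, beside 64.6% of all genes tested.

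**Figure D1:**
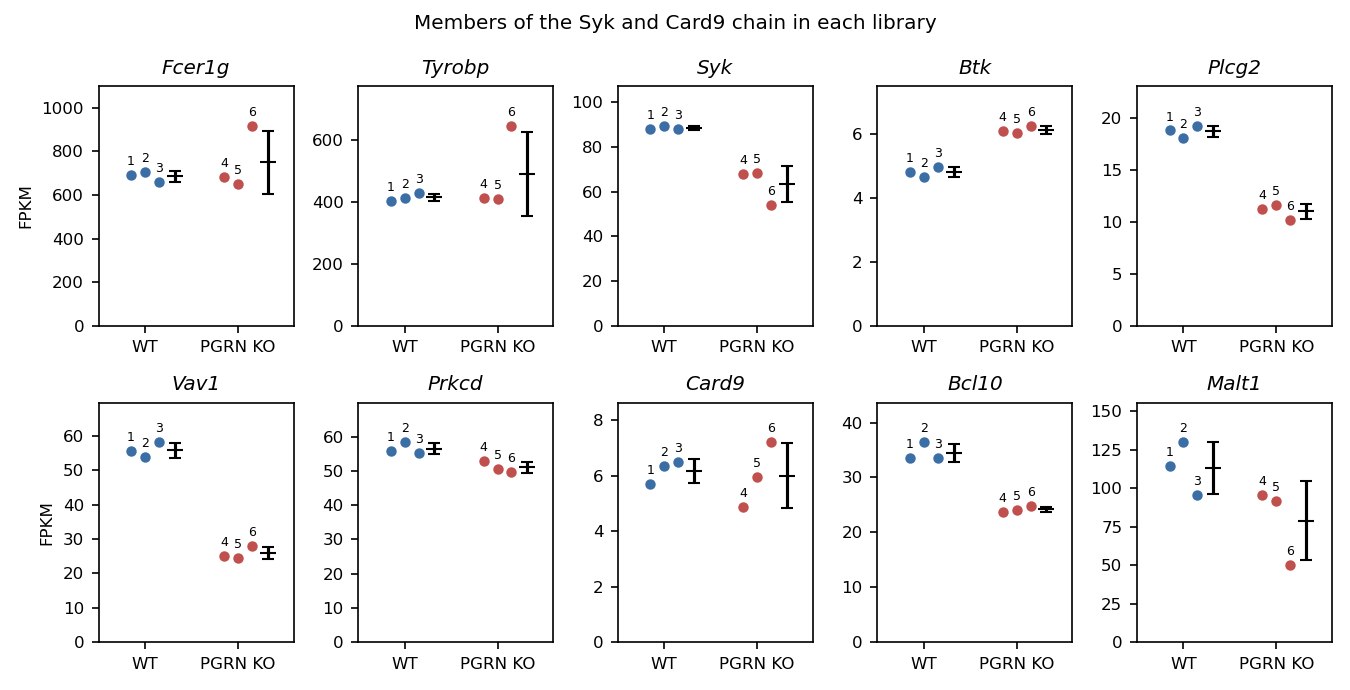
FPKM of the 10 genes (y axis, from 0) in WT and PGRN KO libraries (x axis), with each point a library labelled by its replicate number and the bar giving the mean and SD (n = 3). The WT and PGRN KO points of Vav1, Plcg2, Bcl10 and Syk lie well apart, while those of Fcer1g, Tyrobp and Card9 overlap and PGRN KO replicate 6 is the highest point for all 3 of them.

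The sequences just upstream of the start sites are shown for the genes that fell most and for the only gene that rose, where these windows held no annotated exon. Bcl10 and Syk also fell, but their windows overlap annotated exons and are not shown. Each run holds the 250 bases before the RefSeq start on GRCm38.p6, 5′ to 3′ on the strand of the gene, with capitals where GAGGAA or its reverse complement occurs, the core that the myeloid and B cell factor PU.1 is known to bind. The windows are chr17:57278850-57279099 (plus strand) for Vav1, chr8:117498025-117498274 (plus strand) for Plcg2 and chrX:134583141-134583390 (minus strand) for Btk, and none of the 3 overlaps an annotated exon. The Btk window lies inside the Btk gene model, whose 5′ end is at 134583570, and so is upstream of the RefSeq start only. The genes shown and the motifs searched were chosen after the values were known.
Vav1: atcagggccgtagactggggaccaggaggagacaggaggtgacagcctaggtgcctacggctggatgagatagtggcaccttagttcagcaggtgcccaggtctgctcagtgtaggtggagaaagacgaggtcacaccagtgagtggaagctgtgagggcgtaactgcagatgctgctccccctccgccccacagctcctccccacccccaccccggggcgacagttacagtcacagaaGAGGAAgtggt
Plcg2: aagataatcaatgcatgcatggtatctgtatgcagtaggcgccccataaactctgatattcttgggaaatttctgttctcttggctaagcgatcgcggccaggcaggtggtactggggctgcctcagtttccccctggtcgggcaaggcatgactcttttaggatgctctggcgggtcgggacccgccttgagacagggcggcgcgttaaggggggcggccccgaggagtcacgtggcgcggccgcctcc
Btk: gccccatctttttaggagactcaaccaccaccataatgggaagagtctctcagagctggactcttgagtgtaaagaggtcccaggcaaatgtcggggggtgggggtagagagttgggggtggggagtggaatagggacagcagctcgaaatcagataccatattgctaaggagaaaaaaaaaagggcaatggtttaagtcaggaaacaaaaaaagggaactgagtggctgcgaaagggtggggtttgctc
The Vav1 window held GAGGAA 1 time, within the longer GAGGAAGT, whereas the Plcg2 and Btk windows did not hold these letters. Searched on both strands, GAGGAA occurred in 23.3% and GAGGAAGT in 2.44% of all 32851 windows of the same length. An NF-kB motif, the AP-1 letters TGANTCA and an interferon response motif, found in 0.14%, 6.75% and 2.98% of all windows, occurred in none of the 10 RefSeq windows of the 8 genes of the chain that had one. GAGGAA occurred in 2 of these 10, that of Vav1 and the second of Syk. These are matches of letters, not binding sites.

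The adaptors at the top of the chain were its most abundant transcripts. Fcer1g (ENSMUSG00000058715, chromosome 1, 171229572 to 171234365, GRCm38) was at 690, 705 and 658 FPKM in the WT libraries, in order of replicate number, against 680, 651 and 916 FPKM in the PGRN KO libraries. Tyrobp (ENSMUSG00000030579, chromosome 7, 30413760 to 30417585) was at 403, 412 and 427 FPKM in WT, against 412, 409 and 644 FPKM in PGRN KO. In both genes PGRN KO replicates 4 and 5 lay within or close to the WT range and replicate 6 alone lay above it. The log2 fold change was 0.11 (95% interval -0.24 to 0.47, adjusted p 0.605) for Fcer1g and 0.20 (95% interval -0.23 to 0.64, adjusted p 0.450) for Tyrobp. Without replicate 6 it was -0.04 (-0.18 to 0.10) and -0.01 (-0.14 to 0.11), so that the sign of both differences rested on this library. Their gene models, of 874 and 667 bases, are in the shortest decile of tested genes.

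Syk (ENSMUSG00000021457, chromosome 13, 52583173 to 52648792), the kinase that binds the phosphorylated ITAM, was at 87.9, 89.4 and 88.0 FPKM in WT, against 67.8, 68.3 and 54.0 FPKM in PGRN KO. Every PGRN KO library was below every WT library. PGRN KO replicate 6 was the lowest, and the Syk gene model of 9362 bases is in the longest decile of tested genes. Without this library the log2 fold change was -0.37 (adjusted p 0.00199) in place of -0.48 ± 0.11 (SE, adjusted p 0.0239), and the PGRN KO mean was 77.0% in place of 71.7% of the WT mean. The call was lost without WT replicate 1, 2 or 3 (adjusted p 0.1, 0.0939 and 0.082) and, with all libraries, in 4 other alternatives, among them the TPM scale (0.121). Zap70, the lymphoid relative of Syk, made up at most 1.59% of the summed FPKM of the pair in any library.

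Btk (ENSMUSG00000031264, chromosome X, 134542336 to 134583570), a Tec family kinase that acts beside Syk, was the only gene of the chain that rose. It was at 4.82, 4.66 and 4.98 FPKM in WT, against 6.11, 6.04 and 6.27 FPKM in PGRN KO, from 217 to 360 fragments per library. The groups did not overlap and the log2 fold change was 0.29 ± 0.08 (SE, adjusted p 0.0373), with 0.28 (adjusted p 0.0129) without PGRN KO replicate 6. The call was lost without WT replicate 1, 2 or 3 (0.145, 0.142 and 0.103) and without PGRN KO replicate 4 or 5 (0.0856 and 0.0767), and with all libraries under no filter (0.0589) and on the TPM scale (0.0961), while the sign was kept in all 17 alternatives. Tec, the most abundant member of the family, had a mean of 9.50 ± 0.667 FPKM in WT against 8.13 ± 0.465 FPKM in PGRN KO (SD, n = 3, limma adjusted p 0.149), and passed as lower without PGRN KO replicate 6 (log2 fold change -0.24, adjusted p 0.0377). As a share of the summed FPKM of 5 Tec family genes, Btk made up 32.4% ± 1.29 in WT, against 40.3% ± 0.632 in PGRN KO (SD, n = 3, exact two-sided permutation p = 0.1, the smallest that 3 against 3 libraries allow).

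Genes of the chain, Btk among them, are also expressed in other cells such as B cells, and markers of other cell types were therefore summed. Summed over 10 B cell markers the level was 9.53 to 11.7 FPKM in WT, against 33.1 to 47.8 FPKM in PGRN KO. Of the 4 markers tested, all 4 were higher, namely Igkc, Ighm, Cd79a and Cd79b. Cd79a and Cd79b reached the filter only through PGRN KO, with WT means of 0.960 and 0.633 FPKM. The filter therefore favoured higher markers in this count. None of the 10 markers was at 0 in every library, but Cr2 and Fcer2a had at most 3 and 4 fragments in any library. Cd79a, an ITAM chain of the B cell receptor, rose from 0.960 ± 0.341 to 3.78 ± 0.668 FPKM. Over 8 mast cell markers the sum was 9.24 to 12.7 FPKM in WT, against 17.9 to 23.8 FPKM in PGRN KO. Ms4a2 was at 0 in all libraries. Of the 3 tested, Tpsb2 and Cma1 were higher, but Cma1 also reached the filter only through PGRN KO (WT mean 0.789 FPKM). Hdc, the most abundant, did not pass, with a WT mean of 8.43 FPKM against a PGRN KO mean of 8.48 (limma adjusted p 0.956). Over 9 T and NK cell markers the sum was 3.71 to 4.87 FPKM in WT and 4.80 to 8.03 FPKM in PGRN KO. None of the 2 tested was past the threshold (limma adjusted p, 0 also at an unadjusted p under 0.05 and with voom). Over 10 neutrophil markers it was 68.3 to 73.5 and 42.7 to 43.9 FPKM, with Ly6g, Elane and Cxcr2 at 0. Of the 2 tested, S100a8 was lower, with a WT mean of 50.0 FPKM against a PGRN KO mean of 23.3. Mmp8 did not pass, with a WT mean of 20.2 FPKM against a PGRN KO mean of 19.5 (limma adjusted p 0.717). The lower neutrophil sum thus rested on S100a8. The part of these cells in the results was not tested. In such bulk RNA, fewer cells of a type and less RNA per cell cannot be told apart.

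Vav1 (ENSMUSG00000034116, chromosome 17, 57279100 to 57328031), an exchange factor that acts downstream of Syk, showed the largest difference in the chain. It was at 55.4, 53.8 and 58.0 FPKM in WT, against 25.2, 24.6 and 27.99 FPKM in PGRN KO. The highest PGRN KO library was thus far below the lowest WT library, and the PGRN KO mean was 46.5% of the WT mean. The log2 fold change was -1.08 ± 0.09 (SE, 95% interval -1.29 to -0.87, adjusted p 0.00119). Only 69 of the 8882 tested genes had a lower log2 fold change, 1.02% of tested genes passed with a log2 fold change of -1 or lower, and Vav1 was the only 1 of the 10 genes among them. The call was kept in all 17 alternatives, with adjusted p of at most 0.0147.

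Plcg2 (ENSMUSG00000034330, chromosome 8, 117498291 to 117635142) encodes the phospholipase that produces inositol trisphosphate and diacylglycerol. It was at 18.8, 18.2 and 19.3 FPKM in WT, against 11.3, 11.6 and 10.2 FPKM in PGRN KO, without overlap. The log2 fold change was -0.72 ± 0.09 (SE, adjusted p 0.00309), and it passed in all 17 alternatives, with adjusted p of at most 0.028. Without PGRN KO replicate 6 the log2 fold changes of Vav1 and Plcg2 were -1.13 and -0.66.

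The relatives of these enzymes gave a view of which family member carried the transcripts. Vav1 made up 90.5% ± 0.532 of the summed FPKM of the 3 Vav genes in WT, against 87.9% ± 2.91 in PGRN KO (SD, n = 3). The shares overlapped only through PGRN KO replicate 6, at 91.2%, and without it the PGRN KO mean was 86.2%, with both libraries below every WT library. Vav2 fell from 1.43 ± 0.188 to 0.836 ± 0.116 FPKM (limma adjusted p 0.0345) and Vav3 from 4.41 ± 0.282 to 2.72 ± 0.743 FPKM (adjusted p 0.0405), and each of these calls was kept in 9 of the 16 alternatives that tested the gene. All 3 Vav genes kept their sign wherever they were tested. Plcg2 made up 96.5% ± 0.291 of the summed FPKM of the 2 phospholipase C gamma genes in WT, against 92.4% ± 0.786 in PGRN KO, with Plcg1 below 1 FPKM on average and therefore not tested.

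Prkcd (ENSMUSG00000021948, chromosome 14, 30595354 to 30626210), the kinase that phosphorylates Card9, was at 55.9, 58.3 and 55.3 FPKM in WT, against 52.9, 50.4 and 49.8 FPKM in PGRN KO. The groups did not overlap, but the difference was small and did not pass (log2 fold change -0.14, 95% interval -0.33 to 0.05, adjusted p 0.224). Prkcd made up 81.0% ± 0.596 of the summed FPKM of 9 protein kinase C genes in WT, against 83.6% ± 2.67 in PGRN KO (SD, n = 3), with overlap also without PGRN KO replicate 6 (82.2%). Prkcb, the next most abundant of them in WT, fell from 5.28 ± 0.0706 to 2.92 ± 0.784 FPKM (log2 fold change -0.70, adjusted p 0.0196), a call kept in 11 of the 16 alternatives that tested it. Prkci, Prkch and Prkce were at 1.05 to 4.33 FPKM on average in WT and did not pass.

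Among the 3 proteins of the Card9 complex only the transcript of Bcl10 passed. Bcl10 (ENSMUSG00000028191, chromosome 3, 145922804 to 145934356), the adaptor that polymerizes when Card9 is active, was at 33.5, 36.4 and 33.6 FPKM in WT, against 23.8, 24.2 and 24.7 FPKM in PGRN KO. The groups were separate, the log2 fold change was -0.49 ± 0.08 (SE, adjusted p 0.00785), and the call was kept in all 17 alternatives with adjusted p of at most 0.0489. PGRN KO replicate 6 did not stand apart, at 103% of the mean of replicates 4 and 5. A share of 2.56% of the 31-base words of Bcl10 also occurs in a related gene model, Gm6141.

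Card9 (ENSMUSG00000026928, chromosome 2, 26352176 to 26360918), the scaffold, was among the 2 scarcest transcripts of the chain. It was at 5.68, 6.34 and 6.48 FPKM in WT, against 4.86, 5.94 and 7.19 FPKM in PGRN KO, from 193 to 285 fragments per library. The PGRN KO libraries spanned the whole WT range (log2 fold change -0.05, 95% interval -0.37 to 0.27, adjusted p 0.826), so that a decrease of up to 0.37 on the log2 scale lay within the interval. Without PGRN KO replicate 6, the highest library, the log2 fold change was -0.17 (adjusted p 0.214). Card9 made up 95.5% ± 0.95 of the summed FPKM of 4 CARD scaffold genes in WT, against 93.1% ± 1.51 in PGRN KO (SD, n = 3). These shares overlapped only through PGRN KO replicate 6, at 94.7%, and without it the PGRN KO mean was 92.2%, below every WT library. An opposite-strand gene model, Gm13562, overlaps 3.79% of the exon bases of Card9, and reads of both cannot be told apart unless counting used strand.

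Malt1 (ENSMUSG00000032688), the protease of the complex, had the widest interval of the chain. It was at 115, 130 and 95.9 FPKM in WT, against 95.8, 91.7 and 49.9 FPKM in PGRN KO. PGRN KO replicate 4 reached almost exactly the lowest WT library, and replicate 6, at 53.3% of the mean of the other PGRN KO libraries, was far below the others. The log2 fold change was -0.56 with a wide interval of -1.17 to 0.05 (adjusted p 0.152), and it became -0.26 (-0.56 to 0.04, adjusted p 0.140) without replicate 6. It passed in none of the 17 alternatives. The deposited gene model of Malt1 is the longest of the chain, with 11735 bases. In GENCODE M21 the exons of Malt1 cover 18040 bases, and a longer model would give lower FPKM in every library.

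**Figure D2:**
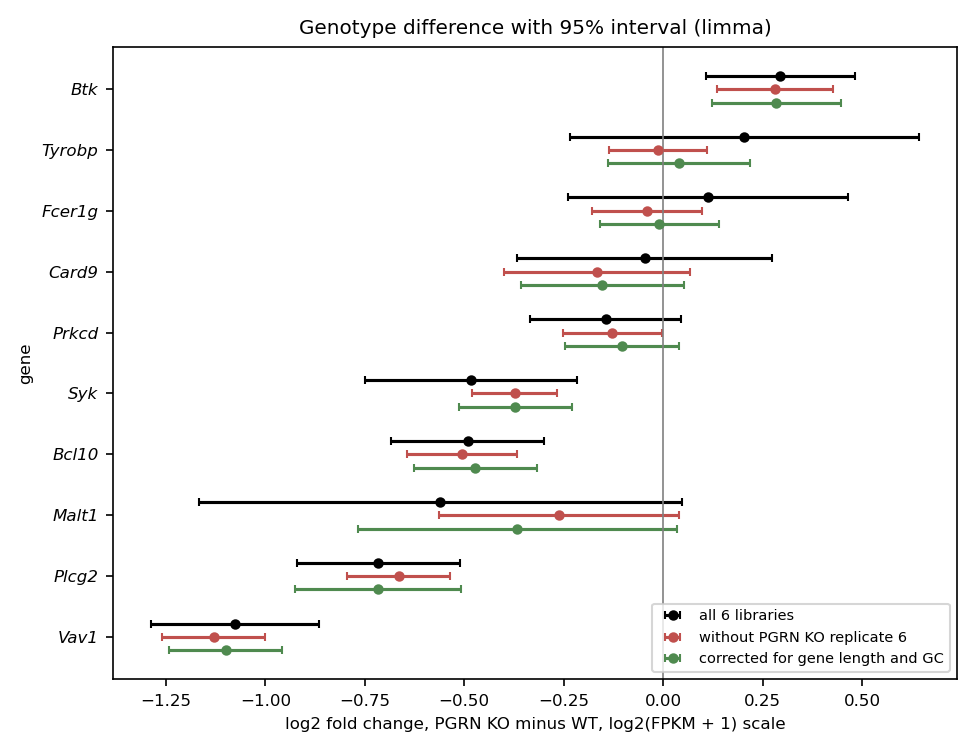
log2 fold change of PGRN KO minus WT on the log2(FPKM + 1) scale (x axis) for each gene (y axis), with 95% limma intervals from all 6 libraries, without PGRN KO replicate 6, and after a loess correction of each library for gene length and GC content. The intervals of Vav1, Plcg2, Bcl10, Syk and Btk lie on the same side of 0 in all 3 fits, and the estimates of Fcer1g and Tyrobp move towards 0 in the last 2 fits.

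The 10 genes also showed how PGRN KO replicate 6 followed gene length. Relative to the mean of replicates 4 and 5 on the log2(FPKM + 1) scale, replicate 6 was higher by 0.65 for Tyrobp and 0.46 for Fcer1g, the 2 shortest gene models, and by 0.36 for Card9. It differed by -0.33 for Syk and -0.89 for Malt1, the 2 longest. For genes between these lengths, Btk, Vav1, Plcg2, Bcl10 and Prkcd, the difference was -0.16 to 0.16. Malt1 was below the middle range of tested genes of its length, of which the lower quartile was -0.63. After the correction for length and GC content 33.1% of all genes tested passed, and Vav1, Plcg2, Bcl10 and Syk were lower (-1.10, -0.72, -0.47 and -0.37) and Btk was higher (0.28) past the threshold. Over all genes tested, 18% were then lower and 15.1% higher.

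**Figure D3:**
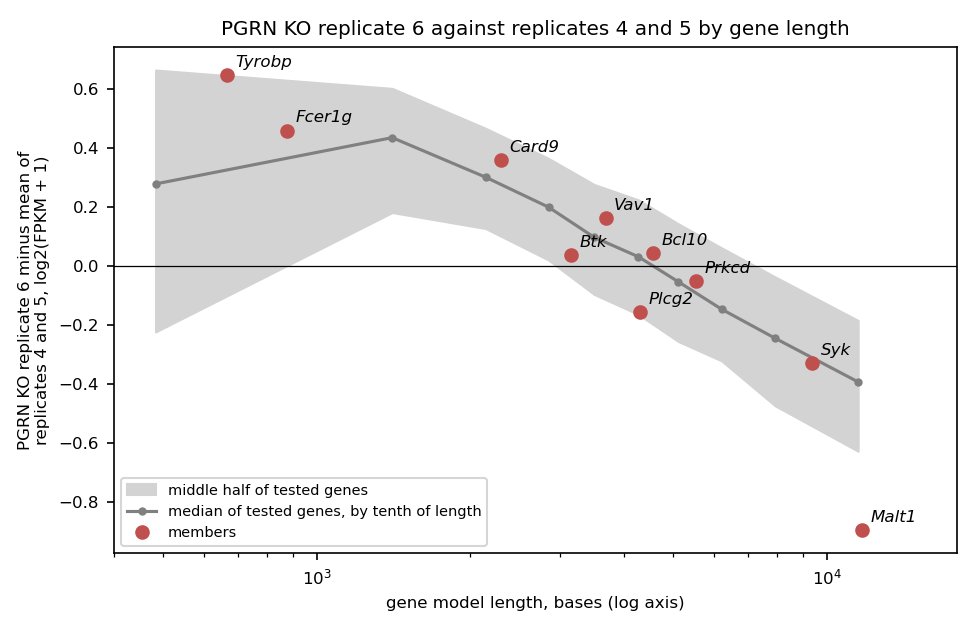
Difference of PGRN KO replicate 6 from the mean of replicates 4 and 5 in log2(FPKM + 1) (y axis) against gene model length in bases (x axis, log scale), with the 10 genes in red, the median of tested genes by decile of length as a grey line, and the middle range between quartiles shaded. The median declines with length from the second decile on, and the 10 genes range from 0.65 for Tyrobp to -0.89 for Malt1.

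Compared per length, the levels of the 10 genes in WT spanned 142-fold, from 684 ± 24.4 FPKM for Fcer1g to 4.82 ± 0.161 FPKM for Btk (SD, n = 3 each). The order in WT was Fcer1g, Tyrobp, Malt1, Syk, Prkcd, Vav1, Bcl10, Plcg2, Card9 and Btk. The place of Malt1 rests on its deposited length, which is shorter than its exons in GENCODE M21. Prkcd and Vav1 had overlapping ranges in WT, and every other pair of neighbours was separate. In PGRN KO, Vav1 at 25.9 ± 1.81 FPKM overlapped Bcl10 at 24.2 ± 0.486 FPKM and no longer Prkcd at 51.0 ± 1.61 FPKM. Malt1 overlapped Syk in PGRN KO, and Btk overlapped Card9. Without PGRN KO replicate 6 all 3 of these overlaps were gone, and Vav1 was still separate from Prkcd.

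Ratios within a library, which do not depend on scaling between libraries, were compared for 5 pairs with exact two-sided permutation tests, for which 0.1 is the smallest p possible. A ratio of genes of unlike length can still carry the length trend of PGRN KO replicate 6. The ratio of Syk to the summed adaptors Fcer1g and Tyrobp was 0.0805, 0.0799 and 0.0811 in WT and 0.0622, 0.0644 and 0.0346 in PGRN KO. All PGRN KO libraries were lower (exact permutation p = 0.1), by 0.64 on the log2 scale with all libraries and by 0.35 without replicate 6. Btk relative to Syk was 0.0545 ± 0.00224 in WT and 0.0981 ± 0.0155 in PGRN KO, and Plcg2 relative to Syk was 0.212 ± 0.00807 in WT, against 0.175 ± 0.0117 in PGRN KO (SD, n = 3, exact p = 0.1 for both, without overlap). The log2 differences of these 2 ratios were 0.84 and -0.28 with all libraries, and 0.71 and -0.33 without replicate 6. Card9 relative to Bcl10 was 0.179 ± 0.0124 and 0.247 ± 0.0431, again without overlap (exact p = 0.1). Its log2 difference was 0.45 with all libraries and 0.33 without replicate 6. Malt1 relative to Bcl10 was 3.28 ± 0.375 and 3.28 ± 1.1, with overlap (exact p = 1). This overlap came from PGRN KO replicate 6, at 2.02, while replicates 4 and 5, at 4.03 and 3.80, were above every WT library, and without replicate 6 the log2 difference was 0.26 in place of -0.06. None of these 5 tests could pass 0.05.

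Genes that surround the chain were examined in 8 lists, whose counts stand beside 13.8% lower and 10.4% higher of all genes tested, or 25.1% and 16.2% without PGRN KO replicate 6. Of 22 receptors that signal through ITAM adaptors or are related to such receptors, 16 were tested, 5 were lower and 1 was higher (median log2 fold change -0.25). Without PGRN KO replicate 6, 11 were lower and 1 was higher. Trem1 fell from 46.7 ± 1.65 to 20.2 ± 0.927 FPKM (log2 fold change -1.17, adjusted p 0.00119) and Clec5a from 13.2 ± 0.671 to 5.91 ± 0.256 FPKM (-1.04, 0.00119), both receptors that pair with DAP12 and both called in all 17 alternatives. Pilrb1 (10.3 ± 1.13 to 5.39 ± 1.24 FPKM) and Cd300lb (16.0 ± 3.71 to 8.15 ± 1.49 FPKM), activating receptors, and Pirb (24.6 ± 0.342 to 18.2 ± 1.87 FPKM), an inhibitory one, also fell, with calls kept in 16, 13 and 11 of 17 alternatives. Trem2, another partner of DAP12, rose from 30.9 ± 1.14 to 55.7 ± 17.3 FPKM (0.79, adjusted p 0.0292), with PGRN KO libraries at 45.8, 45.7 and 75.8 FPKM, a call kept in 13 of 17. The other 10 tested receptors, which include Clec7a (Dectin-1), Clec4n (Dectin-2) and Clec4e (Mincle), receptors for the fungal cell wall, did not pass with all libraries. Without PGRN KO replicate 6, Clec4n passed as lower (log2 fold change -0.28, adjusted p 0.00772, against -0.16 and 0.348 with all libraries), and so did Clec4d, its partner (-0.37, 0.00332, against -0.22 and 0.293). Clec7a (-0.03) and Clec4e (-0.19) did not pass without it. These 4 genes were named after their values were seen.

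None of the 6 tested Src family kinase genes passed with all libraries (median -0.10). At an unadjusted p under 0.05 limma gave 1 of these 6, and voom on recovered fragments called none. Of 20 proximal adaptors and kinases, 19 were tested, 4 were lower and 1 was higher (median -0.32), with 9 and 3 without replicate 6. Stap1, an adaptor of myeloid and B cells, fell from 7.87 ± 0.564 to 3.34 ± 0.399 FPKM (-1.03, adjusted p 0.00175). Pik3ap1, which links receptors to phosphoinositide 3-kinase, fell from 109 ± 5.29 to 66.5 ± 11.3 FPKM (-0.72, 0.0127), and Crk and Skap2 fell by 0.48 and 0.46 on the log2 scale. Pik3cd, the leukocyte catalytic subunit of that kinase, rose from 4.50 ± 0.104 to 7.77 ± 0.759 FPKM (0.67, 0.00509). The calls of Pik3ap1, Crk and Skap2 were kept in 14, 14 and 13 of 17 alternatives. Skap2 lost its call after correction for gene length and GC content (log2 fold change -0.27, limma adjusted p 0.103).

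Of 20 inhibitors of the chain, 18 were tested, 2 were lower and 1 was higher (median -0.09), with 5 and 3 without replicate 6. Ptpn6, the phosphatase SHP-1, rose from 20.3 ± 0.659 to 29.5 ± 6.00 FPKM (0.50, adjusted p 0.0428), while Sla, an adaptor that dampens receptor signals, fell by 0.75 and Sirpa, an inhibitory receptor, by 0.33 on the log2 scale. The call of Ptpn6 was kept in 12 and that of Sirpa in 9 of 17 alternatives. The median of the list was 0.05 without replicate 6 and 0.02 after correction for gene length and GC content.

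Between the Card9 complex and NF-kB, 19 of 20 genes were tested, of which 1 was lower and 1 was higher (median -0.09), with 3 each without replicate 6. Nfkb1, which encodes the p105 precursor of p50, fell from 85.2 ± 5.69 to 59.5 ± 6.68 FPKM (-0.51, adjusted p 0.0193), and Casp8, a protease that also binds the complex, rose from 19.7 ± 0.811 to 28.8 ± 3.48 FPKM (0.52, 0.0155). These calls were kept in 13 and 14 of 17 alternatives. Of 8 genes for substrates of the Malt1 protease and their relatives, all 8 were tested, 4 were lower and 1 was higher (median -0.46), with 5 and 1 without replicate 6. Nfkbiz fell from 418 ± 83.1 to 230 ± 36.5 FPKM and Nfkbid from 442 ± 36.2 to 247 ± 30.4 FPKM, both atypical inhibitor of NF-kB proteins of the nucleus, with adjusted p of 0.0177 and 0.00569. The endonucleases Zc3h12d and Zc3h12a fell by 0.54 and 0.39, and Rbck1, a subunit of the linear ubiquitin ligase, rose by 0.51 on the log2 scale. The calls of Nfkbid, Nfkbiz and Zc3h12a were kept in 17, 14 and 10 of 17 alternatives, and those of Zc3h12d and Rbck1 in 10 and 14 of 16.

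Of 20 genes of calcium and NFAT signalling, which Plcg2 feeds, 17 were tested, 5 were lower and none was higher (median -0.10), with 9 and 1 without replicate 6. Egr2, a zinc finger factor induced through NFAT, fell from 118 ± 3.90 to 66.7 ± 6.38 FPKM (-0.81, adjusted p 0.00324), and this was the only call of the list kept in all 17 alternatives. Ptgs2 (the prostaglandin synthase COX-2), Orai2 (a calcium channel subunit), Egr3 and Ppp3r1 (the regulatory subunit of calcineurin) fell by 0.78, 0.56, 0.41 and 0.36. The calls of Ptgs2 and Orai2 were kept in 9 and 12 of 17 alternatives, that of Egr3 in 9 of 16 and that of Ppp3r1 in 11 of 17. Of 16 cytokine genes linked to Card9, all were tested, 2 were lower and 1 was higher (median -0.23), with 5 and 1 without replicate 6. Il10 fell from 232 ± 56.8 to 77.2 ± 10.5 FPKM (-1.55, 0.0034) and Csf3 from 1987 ± 303 to 1141 ± 172 FPKM (-0.80, 0.0160), while Il27 rose from 28.9 ± 5.83 to 79.0 ± 26.2 FPKM (1.38, 0.0134). The calls of Il10, Csf3 and Il27 were kept in 17, 13 and 15 of 17 alternatives.

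**Figure D4:**
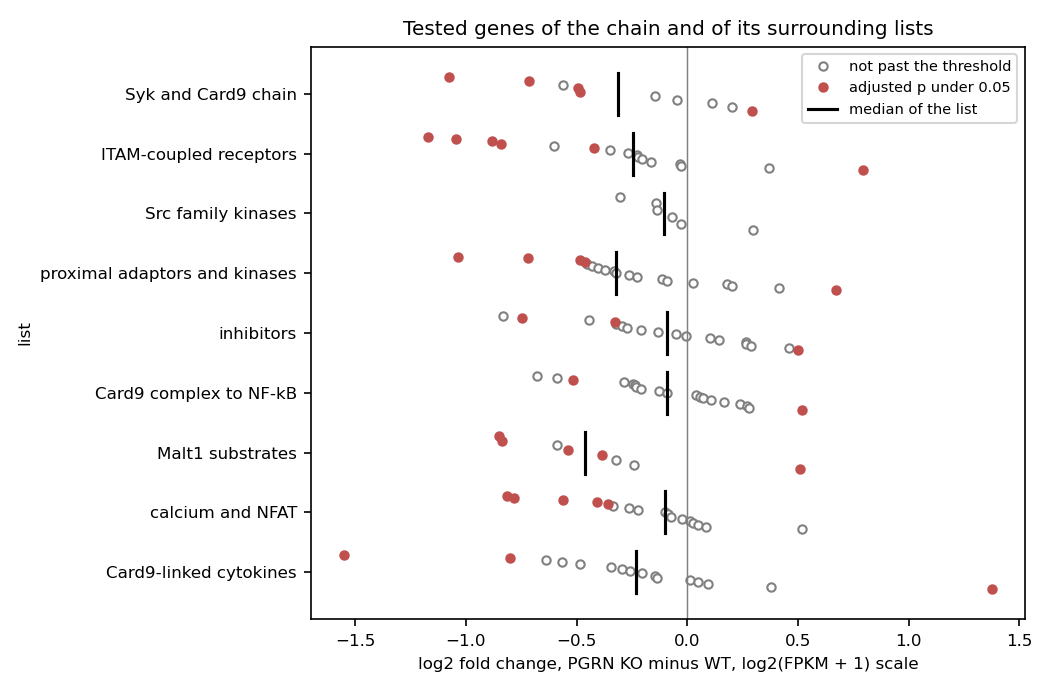
log2 fold change of PGRN KO minus WT on the log2(FPKM + 1) scale (x axis) for every tested gene of the chain and of the 8 surrounding lists (rows), with filled points past an adjusted p of 0.05 and a bar at the median of each list. The medians lie between -0.46 for the Malt1 substrates and -0.09 for the inhibitors and for the genes between Card9 and NF-kB, and each list except the Src family kinases holds at least 1 filled point.

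The protein-coding genes whose pattern over the 6 libraries was most like that of Syk were Alkbh5, Pknox1, Ivns1abp, Cdk17 and Atf7ip. Likeness was the Euclidean distance between log2(FPKM + 1) profiles centred on their own means, which was 0.0572 to 0.0659 for these 5 genes. Within the chain the nearest pair was Fcer1g and Tyrobp, with a distance of 0.230, followed by Syk and Bcl10 with 0.313 and Syk and Plcg2 with 0.329. These distances describe 6 shared libraries and carry no test. The 5 genes most like Syk have gene models of 5435 to 20726 bases, and each was lowest in PGRN KO replicate 6.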

How the data were processed

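RNA sequencing libraries of 3 WT and 3 PGRN KO macrophage samples were analysed. The authors filtered low-quality and adaptor reads, aligned the rest and deposited FPKM per gene. For this, the study's methods name HISAT, HTSeq and DESeq2, while the submitters' processing notes name CASAVA, HISAT2 2.0.5, featureCounts 1.5.0-p3, DESeq2 1.20.0 and the build mm10 (GRCm38). No source used here states strandedness. Of 54532 genes, 99.77% were in GENCODE M21, 98.33% of these with the same coordinates. FPKM times gene length gave whole fragments (tolerance 0.001 of a fragment) for 100% of values above 0. The divisor of the FPKM was proportional to median-ratio size factors, and 0.925 to 1.09 times the summed fragments.

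Genes with a mean of at least 1 FPKM were tested on log2(FPKM + 1), which understates changes of low genes, with limma 3.58.1 in R 4.3.3 (variance trend, no covariates, two-sided, adjusted p threshold 0.05). On simulated data for 3 against 3 libraries, with 8882 genes and 200 changed by 1 on the log2 scale, 85.8% were called and 8.24% of calls were false. The simulation assumed a dispersion of 0.02 and held no length trend like that of PGRN KO replicate 6. Its rates therefore do not give the power or the rate of false calls in the data. The members and lists were chosen with earlier results of these data known. Named genes were the members, their relatives of at least 1 FPKM, in each list the called genes (at most 6 per direction, largest log2 fold change first), Grn and the 5 genes most like Syk. GC content was known for 99.93% of tested genes. The alternatives are given in the closing section. Protein sequences were not used here.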

Additional observations from a re-analysis of the deposited data

How the results depend on the processing

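No paired analysis was made because the labels name no pairs of WT and PGRN KO libraries, and whether any were prepared together is not known. The 17 alternatives were pseudocounts of 0.1 and 0.01, no filter, a mean of at least 5 FPKM, the TPM scale, quantile normalization, summed fragments as library size, sample quality weights, loess correction for length and GC content with and without PGRN KO replicate 6, voom on recovered fragments, and each library left out. List counts, shares, order and overlap without replicate 6 were chosen after seeing the data.

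Of the 5 called genes of the chain, 3 remained with no filter and 3 on the TPM scale, and 3 to 5 with a library left out. The 2151 called genes of the whole table became 1366 with no filter, 4225 with sample quality weights (which gave replicate 6 a weight of 0.0899), 3722 with the correction without replicate 6, and 713 to 3668 with a library left out. The share of calls that were higher was 60.6% on the TPM scale and 62.9% with summed fragments. It was 42.8% in the analysis reported. The causes of these shifts were not tested.

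Sign changes of log2 fold changes were seen only for genes without a call. Card9 was 0.0391 with summed fragments, 0.0753 without PGRN KO replicate 4, and -0.166 to 0.0753 over all left-out libraries. Fcer1g was -0.0278 with quality weights, -0.00943 and -0.0337 with the correction with and without replicate 6, and -0.0399 to 0.206 with a library left out. Tyrobp was -0.0246 with the correction without replicate 6 and -0.0123 to 0.314 with a library left out. Prkce was -0.0138 to 0.169 with a library left out, negative without PGRN KO replicate 4. Prkch was 0.0169 with summed fragments, 0.0331 with the correction, and -0.11 to 0.0161 with a library left out. The log2 ratio of Malt1 to Bcl10, -0.0582 with all libraries, was 0.00598 without WT replicate 2 and -0.238 to 0.26 over all left-out libraries, with 0.26 without PGRN KO replicate 6, and the other 4 ratios kept their sign. Over the 10 genes and 17 alternatives, 148 values kept sign and side of the threshold, 14 lost the call and 8 changed sign. Over 45 other named genes these counts were 592, 154 and 4, and 2 gained a call.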
